A study of Bos taurus with 9 samples.

Results

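Serine synthesis, one-carbon and transsulfuration enzymes were followed at the RNA level in bovine uterine gland fragments cultured in 3D with or without EGF. The set holds 10 of the 20679 genes in the files, namely PHGDH, PSAT1, PSPH, SHMT1, SHMT2, MTHFD1, MTHFD2, CTH, CBS and BCAT1, and the rows that carry these symbols were taken, 1 row per gene. The genes were chosen by their lower levels in the EGF cultures than in the cysts, so their values in that contrast are given as a description and not as a test. RNA was sequenced on day 5 from 3 libraries per group. Fragments in Matrigel without EGF (labelled Control) formed cysts and make up the CYST group, fragments in Matrigel with EGF formed uterine gland-like structures and make up the MAT group (EGF, M in the labels), and fragments with EGF in Matrigel to which type I collagen had been added make up the MAT + COL group (EGF, MCol). Fragments of every group were isolated from abattoir uteri without a visible conceptus and with a corpus luteum, and were picked by hand. Insulin, transferrin, sodium selenite, ascorbic acid and BSA were present in the DMEM/F12 medium of every group, so the controls lacked EGF but not insulin. The labels give the cells as epithelial cells of the uterine gland and give no age of the animals. They do not say whether the replicates came from separate cows or cultures. The paper states that the MAT and MAT + COL libraries clustered mainly by individual and not by collagen. Its text does not match individuals to replicate numbers. The p-values here measure the spread between these libraries.

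PHGDH, PSAT1 and PSPH act in sequence to make serine from 3-phosphoglycerate, an intermediate of glycolysis. SHMT1 in the cytosol and SHMT2 in mitochondria convert serine to glycine and pass the released carbon to folate, and MTHFD1 in the cytosol and MTHFD2 in mitochondria interconvert the resulting folate forms, which feed purine, thymidylate and methionine synthesis. CBS joins serine to homocysteine to give cystathionine, CTH splits cystathionine to give cysteine, and BCAT1 moves the amino group of leucine, isoleucine and valine onto a keto acid in the cytosol.

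Total counts on genes ranged from 6568968 to 17948600 per library. The 10 genes together made up 0.108% to 0.209% of the TPM (a transcript level scaled for gene length and library size) in CYST, 0.0484% to 0.0676% in MAT and 0.0466% to 0.0608% in MAT + COL. The summed TPM of 9 epithelial markers was 17990 to 19400 in CYST, 28890 to 44960 in MAT and 30100 to 39890 in MAT + COL. Most of this sum was the keratins KRT8 and KRT19, with means of 8314 and 7751 TPM in CYST and 15490 and 17274 in MAT. These 2, EPCAM, MUC1 and CLDN3 were each higher in every EGF library than in every cyst library. The levels of KRT18, FOXA2 and CLDN4 overlapped between cysts and EGF cultures. CDH1 was at 245.9 to 465.1 TPM in CYST, 489.7 to 568.2 in MAT and 449.6 to 514.7 in MAT + COL. It was thus above the cysts in every MAT library and overlapped them in MAT + COL. The mean of CLDN4 was 852 TPM in CYST, 710 in MAT and 818 in MAT + COL. FOXA2, a transcription factor of uterine glands, was listed at 1.31 to 12.4 TPM. The 9 stromal markers summed to 2259 to 4878 TPM in CYST, 1208 to 3798 in MAT and 2231 to 4315 in MAT + COL. They did not move together. VIM was higher in every EGF library, at 238 to 312 TPM in CYST, 452 to 796 in MAT and 326.5 to 810 in MAT + COL. The means of COL1A1, COL1A2, COL3A1, DCN, LUM, PDGFRB and THY1 were lower in both EGF groups. Those of COL3A1 and COL1A1 in MAT + COL, 552 and 259 TPM, were close to the 555 and 275 TPM of CYST. The mean of PDGFRA was lower in MAT and higher in MAT + COL. The endothelial markers reached at most 27.5 TPM in sum, the immune markers 48.4, with CD3E and MS4A1 under 1 TPM in every library, and the smooth muscle markers 83.8. The part of these differences in the values below was not tested, and in bulk RNA fewer cells with a transcript and less transcript per cell cannot be told apart.

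The enzymes spanned a wide range of levels. In CYST, PHGDH and PSAT1 stood at ranks 271 and 303 by mean TPM among 14910 genes with a TPM above 0, followed by SHMT2 at rank 1026, MTHFD1 at 1151, PSPH at 1882, CTH at 2052, CBS at 2689, MTHFD2 at 3586, BCAT1 at 4728 and SHMT1 at 9445. Among neighbours in this order, PSAT1 and SHMT2 did not overlap and BCAT1 and SHMT1 did not overlap, while the other 7 pairs did. In MAT the order began with PSAT1 at rank 860 and PHGDH at rank 1663 of 14859 genes, and CTH stood at rank 7096, behind CBS at 4073 and MTHFD2 at 5991. In MAT + COL, PSAT1 was at rank 879, PHGDH at rank 1867 and CTH at rank 7914 of 15262 genes. The place of CTH in the order was thus behind CBS in both EGF groups and ahead of it in the cysts.

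**Figure D1:**
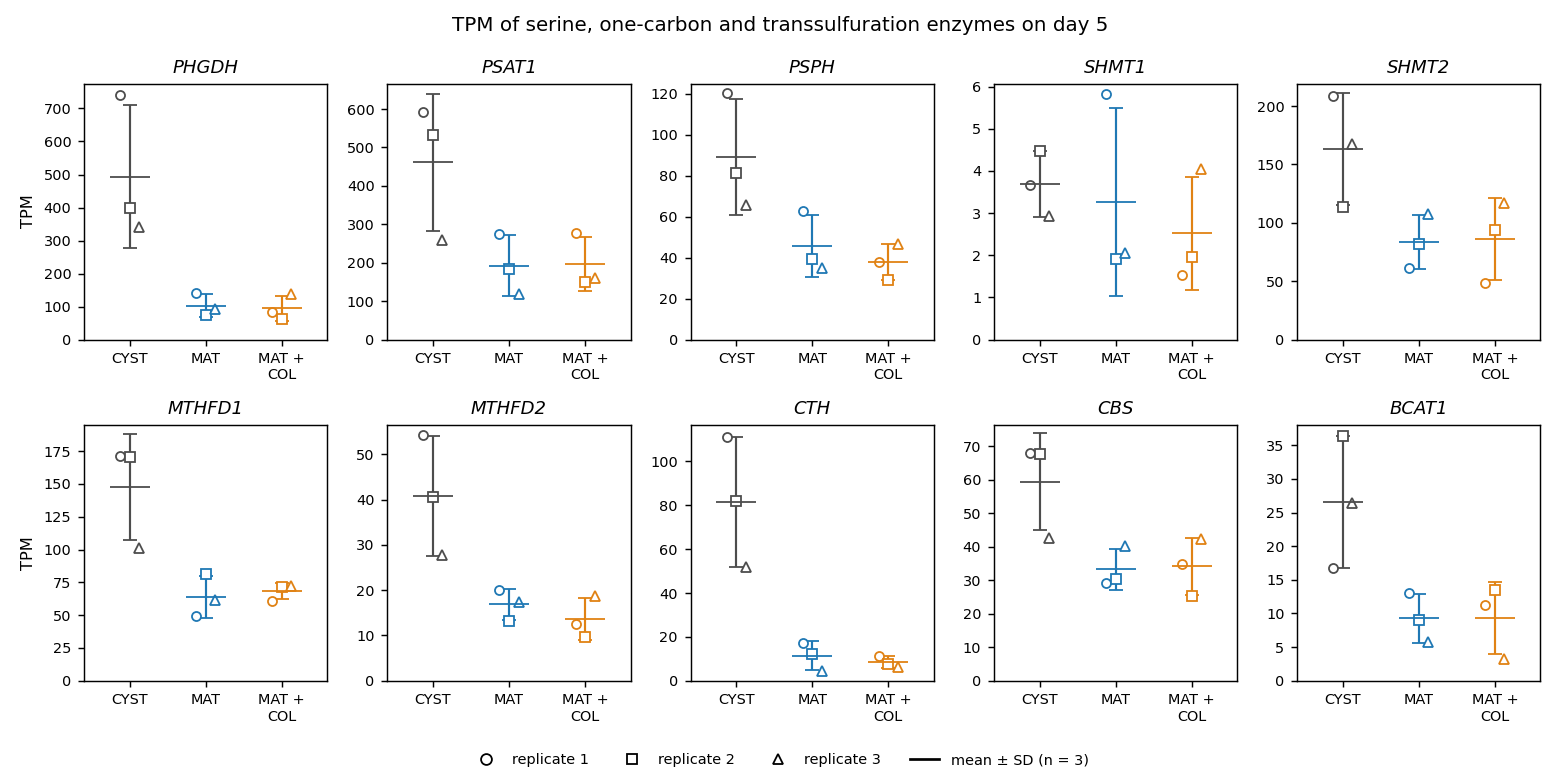
TPM of the 10 enzymes in each of the 9 libraries on day 5, with 1 panel per gene, the TPM on the vertical axis and the 3 groups on the horizontal axis. Symbols mark the replicate number, and the bars show mean ± SD (n = 3). For PHGDH the 3 cyst libraries lie between 339.5 and 741.1 TPM and the 6 EGF libraries between 62.5 and 141.3, whereas for SHMT1 the groups overlap.

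PHGDH, the enzyme that commits 3-phosphoglycerate to serine (ENSBTAG00000039719, chromosome 3, 23565152 to 23596684 in ARS-UCD2.0, reverse strand), was listed at 741.1, 400.0 and 339.5 TPM in CYST replicates 1, 2 and 3, at 141.3, 75.1 and 91.9 in MAT, and at 83.8, 62.5 and 136.7 in MAT + COL. Every cyst library was above every EGF library. The group means were 494 ± 217, 103 ± 34.4 and 94.3 ± 38.2 TPM (SD, n = 3). The Log2FC, fitted on the counts, was -2.26 ± 0.34 (SE) in MAT against CYST, which is 4.80-fold lower, and -2.41 ± 0.40 in MAT + COL against CYST, which is 5.32-fold lower. It was thus the largest difference of the serine synthesis enzymes in these fits.

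PSAT1, the aminotransferase of the next step (ENSBTAG00000013960, chromosome 8, 54216615 to 54245203, forward strand), was at 592.4, 533.7 and 257.9 TPM in CYST, at 275.3, 183.5 and 119.4 in MAT, and at 278.3, 151.0 and 159.9 in MAT + COL. Replicate 1 of each EGF group lay above CYST replicate 3, so the groups overlapped. The Log2FC was -1.24 ± 0.34 in MAT and -1.28 ± 0.30 in MAT + COL against CYST. PSPH, the phosphatase that releases serine (ENSBTAG00000013081, chromosome 25, 27697070 to 27719435, reverse strand), was at 120.5, 81.3 and 65.8 TPM in CYST, at 62.8, 39.2 and 34.9 in MAT, and at 37.8, 29.2 and 46.6 in MAT + COL. No EGF library reached the lowest cyst library, although MAT replicate 1 came within 3 TPM of it. The Log2FC of PSPH was -0.97 ± 0.28 and -1.27 ± 0.27 in the 2 comparisons with CYST.

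The members of the serine synthesis pathway differed by unequal amounts. The ratio of PHGDH to PSPH in TPM was 6.15, 4.92 and 5.16 in the cyst libraries, 2.25, 1.92 and 2.64 in MAT, and 2.22, 2.14 and 2.93 in MAT + COL, with no overlap between cysts and EGF cultures. The ratio of PSAT1 to PHGDH was 0.799, 1.33 and 0.760 in CYST, 1.95, 2.44 and 1.30 in MAT, and 3.32, 2.42 and 1.17 in MAT + COL. PSAT1 was therefore above PHGDH in each of the 6 EGF libraries and in 1 of the 3 cyst libraries.

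SHMT2, the mitochondrial serine hydroxymethyltransferase (ENSBTAG00000031500, chromosome 5, 56208141 to 56215544, reverse strand), was at 208.8, 113.4 and 167.6 TPM in CYST, at 61.5, 81.9 and 107.3 in MAT, and at 48.3, 93.8 and 117.2 in MAT + COL. The cyst libraries were above those of MAT, but MAT + COL replicate 3 was above CYST replicate 2. The Log2FC was -0.99 ± 0.32 in MAT and -0.97 ± 0.40 in MAT + COL against CYST. Its gene shares 20 bases with NDUFA4L2 on the opposite strand, whose level was 4.78 to 236.4 TPM in CYST, 247.1 to 810.1 in MAT and 97.9 to 900.7 in MAT + COL, and the part of that overlap in the counts of SHMT2 was not tested.

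SHMT1, the cytosolic form (ENSBTAG00000017094, chromosome 19, 34334992 to 34350210, forward strand), had the lowest level of the 10 enzymes, with 32 to 90 counts per library. It was at 3.67, 4.48 and 2.92 TPM in CYST, at 5.83, 1.91 and 2.05 in MAT, and at 1.54, 1.96 and 4.06 in MAT + COL. The groups overlapped, and the highest value of all 9 libraries was in MAT replicate 1. The Log2FC was -0.21 ± 0.54 in MAT and -0.57 ± 0.51 in MAT + COL against CYST, so the differences in SHMT1 were within about 1 SE of 0. SHMT2 was above SHMT1 by 10.5-fold to 57.4-fold in TPM in every library.

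MTHFD1 (ENSBTAG00000009641, chromosome 10, 76546344 to 76607077, forward strand) is a cytosolic enzyme with 3 activities in the folate cycle. It was at 171.0, 170.8 and 100.9 TPM in CYST, at 49.1, 81.2 and 61.2 in MAT, and at 61.0, 71.5 and 72.6 in MAT + COL, with every EGF library below every cyst library. The Log2FC was -1.19 ± 0.24 and -1.14 ± 0.20 against CYST. MTHFD2, its mitochondrial counterpart (ENSBTAG00000004881, chromosome 11, 10417362 to 10464657, reverse strand), was at 54.2, 40.6 and 27.7 TPM in CYST, at 20.0, 13.2 and 17.4 in MAT, and at 12.5, 9.61 and 18.8 in MAT + COL, again without overlap between the cysts and either EGF group. The Log2FC was -1.27 ± 0.26 and -1.61 ± 0.33. Its gene overlaps SLC4A5 on the opposite strand, which was listed at no more than 0.34 TPM.

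CTH (ENSBTAG00000014791, chromosome 3, 74742748 to 74793722, reverse strand), which releases cysteine in the last step of transsulfuration, showed the largest Log2FC of the 10 genes. It was at 111.1, 82.0 and 51.8 TPM in CYST, at 17.4, 12.2 and 4.29 in MAT, and at 11.4, 7.87 and 6.37 in MAT + COL. The lowest cyst library was well above the highest EGF library. The means were 81.6 ± 29.7, 11.3 ± 6.62 and 8.56 ± 2.601 TPM (SD, n = 3). The Log2FC was -2.86 ± 0.47 in MAT, or 7.29-fold lower, and -3.31 ± 0.29 in MAT + COL, or 9.90-fold lower than in CYST. At least 59 counts lay behind each of the EGF values.

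CBS (ENSBTAG00000000160, chromosome 1, 143219500 to 143242399, reverse strand), the enzyme of the step before, differed less. It was at 67.8, 67.7 and 42.7 TPM in CYST, at 29.3, 30.2 and 40.1 in MAT, and at 34.8, 25.3 and 42.2 in MAT + COL. The third replicate of the cysts was within 3 TPM of that of both EGF groups, and the groups did not overlap. The Log2FC was -0.82 ± 0.22 and -0.84 ± 0.24. The ratio of CBS to CTH in TPM was 0.611, 0.826 and 0.824 in CYST, 1.68, 2.48 and 9.36 in MAT, and 3.04, 3.21 and 6.63 in MAT + COL. CTH was above CBS in each cyst library and below it in each EGF library.

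BCAT1 (ENSBTAG00000013825, chromosome 5, 85057007 to 85179197, forward strand) was at 16.8, 36.4 and 26.4 TPM in CYST, at 13.0, 9.05 and 5.79 in MAT, and at 11.3, 13.5 and 3.31 in MAT + COL. The EGF libraries were below the cyst libraries, with the narrowest gap at replicate 1. The Log2FC was -1.54 ± 0.36 and -1.60 ± 0.49. Replicate 1 held the lowest cyst value of BCAT1, whereas the other enzymes except SHMT1 had their highest cyst value in that library.

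In MAT against CYST the Log2FC of the 10 enzymes ranged from -2.86 to -0.21 with a median of -1.22, and the median of the 12074 genes tested was 0.01. The sign was negative for 10 of 10. By edgeR's quasi-likelihood test without a replicate block, 2 of the 10 (PHGDH and CTH) had an adjusted p under 0.05 and were lower, where 0.944% of all genes tested were called lower and 1.79% were called in either direction. Both also met the criteria of a DEG (adjusted p under 0.05, Log2FC below -1 and TPM above 1 in each library), which 0.729% of genes met in that direction. With the replicate number as a block, 7 of 10 were called lower, the exceptions being SHMT1, SHMT2 and CBS, where 5.67% of all genes were called lower and 4.9% higher. The DEG criteria with the block held for 6 of 10, without PSPH, and for 3.08% of all genes. The TPM of MAT lay below that of CYST without overlap for 8 of 10, all but PSAT1 and SHMT1, and for 11.8% of all genes. DESeq2 called 9 of 10 lower and 5.11% of all genes. In the fit without the block, leaving out CYST replicate 1 or 2, or MAT replicate 1 or 2, gave 0 of 10. The share of all genes called in these fits fell to 0.0562%, 0.0408%, 0.072% and 0.26%, in that order. Leaving out MAT replicate 3 gave 1, with 1.0% of all genes called. Since this contrast chose the enzymes, nothing further is read from these counts.

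MAT + COL against CYST uses the same 3 cyst libraries, and its values stand beside those of MAT as a second description. The median Log2FC of the enzymes was -1.28, against 0.04 over 12509 genes, and again 10 of 10 were negative. Without the block, 3 of 10 were called lower (PHGDH, CTH and MTHFD1), where 0.815% of all genes were called lower and 1.49% in either direction, and the same 3 met the DEG criteria along with 0.616% of genes. Leaving out CYST replicate 2 or MAT + COL replicate 2 gave 0 of 10, where 0.0312% and 0.0234% of all genes were called. Leaving out replicate 1 of CYST or of MAT + COL gave 1, where 0.0546% and 0.0469% of all genes were called. With the block, 6 of 10 were called lower (PHGDH, PSAT1, PSPH, MTHFD1, MTHFD2 and CTH), where 2.58% of genes were called lower and 2.68% higher, and the same 6 met the DEG criteria with 1.62% of genes. The groups did not overlap for 7 of 10, the exceptions being PSAT1, SHMT1 and SHMT2, and for 10.3% of all genes in that direction. DESeq2 called 8 of 10 lower and 6.33% of all genes.

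**Figure D2:**
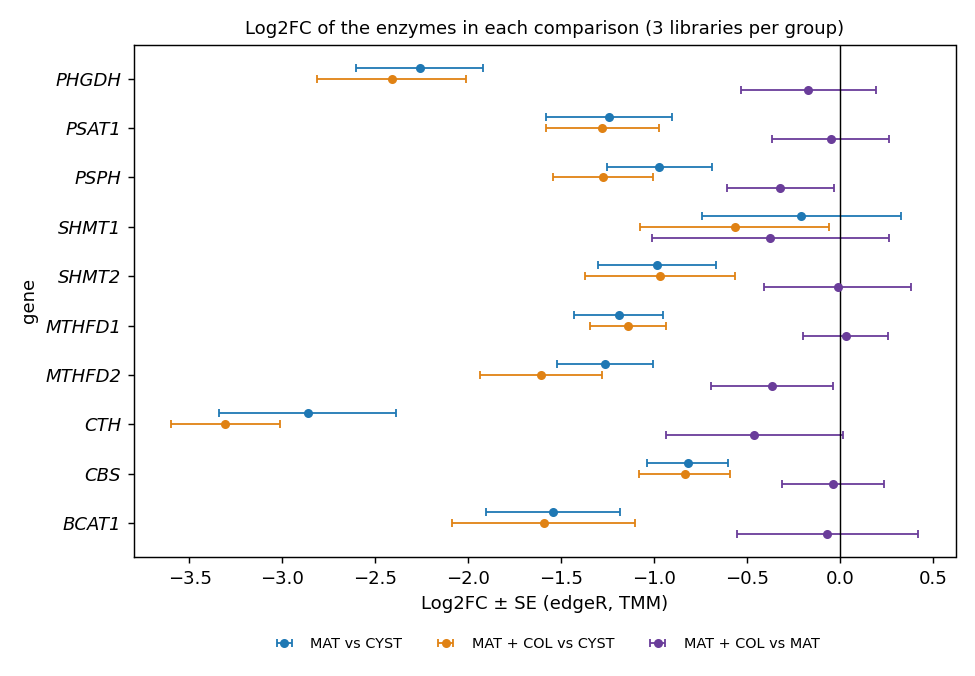
Log2FC ± SE of each enzyme (edgeR on TMM-normalized counts, 3 libraries per group, no replicate block) in MAT against CYST (blue), MAT + COL against CYST (orange) and MAT + COL against MAT (purple). The points of both comparisons with CYST lie to the left of 0, farthest for CTH and PHGDH, while those of MAT + COL against MAT lie between -0.46 and 0.03.

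Libraries of the same replicate number were also set side by side. In MAT against CYST the log2 ratio of TPM was -2.39, -2.41 and -1.89 for PHGDH in replicates 1, 2 and 3 and -2.67, -2.75 and -3.60 for CTH. For PSAT1 it was -1.10, -1.54 and -1.11, and for PSPH -0.94, -1.05 and -0.92, so these 4 enzymes were lower by more than 0.9 in each of the 3 pairs. The pairs were less alike for others. For CBS the ratio was -1.21, -1.16 and -0.09, for BCAT1 -0.37, -2.01 and -2.19, for SHMT2 -1.76, -0.47 and -0.64, and for SHMT1 0.67, -1.23 and -0.51. In MAT + COL against CYST, replicate 3 had the ratio nearest to 0 or above 0 for PHGDH, PSAT1, PSPH, SHMT1, MTHFD1, MTHFD2, CTH and CBS, for example -1.31 for PHGDH where the other replicates had -3.15 and -2.68. SHMT2 and BCAT1 were the exceptions, with ratios of -0.52 and -3.00 in replicate 3. In CYST replicate 3, FTH1, which encodes the ferritin heavy chain, took 12.01% of the TPM, against 3.59% and 3.41% in the other cyst libraries. In replicates 1, 2 and 3 it took 6.31%, 7.11% and 10.16% in MAT and 4.84%, 7.73% and 7.82% in MAT + COL. The part of FTH1 in these ratios was not tested.

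**Figure D3:**
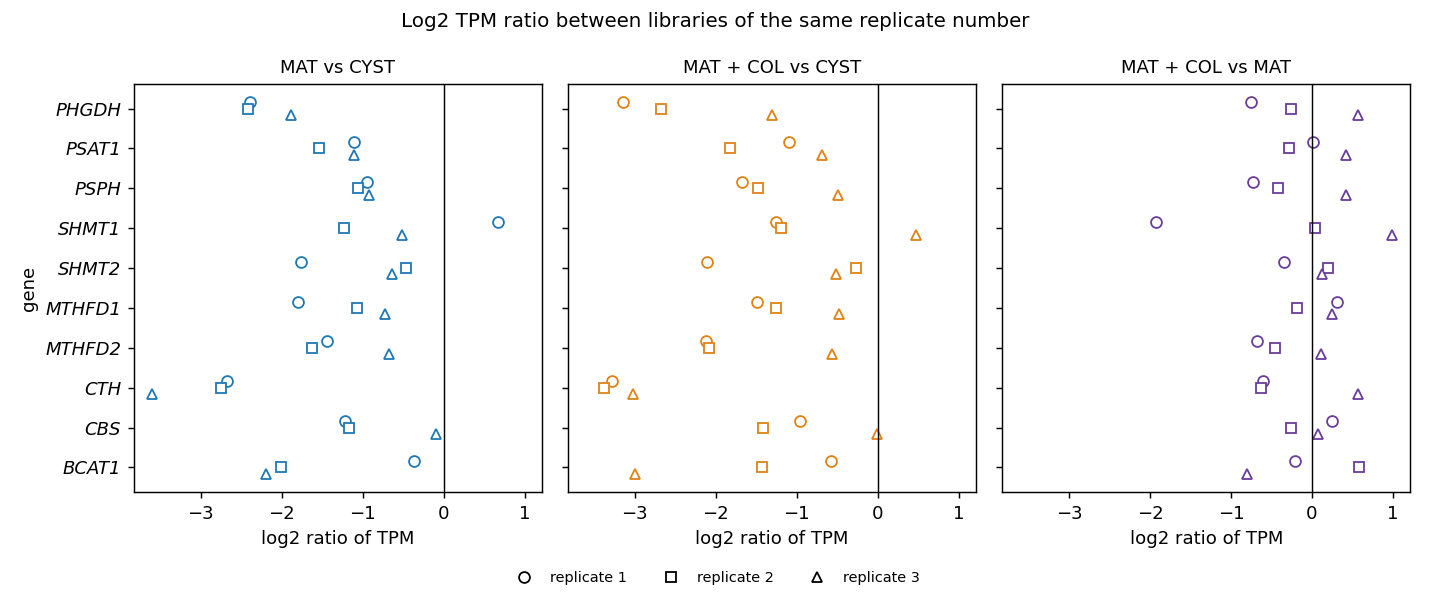
Log2 ratio of TPM between libraries with the same replicate number for each enzyme, in 3 panels for MAT against CYST, MAT + COL against CYST and MAT + COL against MAT, with the symbol showing the replicate. PHGDH and CTH lie below -1 in each pair of both comparisons with CYST, and in MAT + COL against MAT the ratios of PHGDH run from -0.75 in replicate 1 to 0.57 in replicate 3.

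The comparison of MAT + COL with MAT asks what collagen I added in the presence of EGF, and it took no part in the choice of the enzymes. No enzyme passed the test between these groups. The Log2FC was -0.17 for PHGDH (95% confidence interval -1.02 to 0.68), -0.05 for PSAT1 (-0.79 to 0.69) and -0.32 for PSPH (-0.997 to 0.35). It was -0.38 for SHMT1 (-1.88 to 1.13), -0.01 for SHMT2 (-0.95 to 0.92), 0.03 for MTHFD1 (-0.50 to 0.56) and -0.37 for MTHFD2 (-1.14 to 0.41). For the transsulfuration enzymes it was -0.46 for CTH (-1.58 to 0.66) and -0.04 for CBS (-0.68 to 0.60), and for BCAT1 it was -0.07 (-1.22 to 1.08). These intervals, from the fit without the block, leave room for a change of 2-fold in either direction for SHMT1 and BCAT1. They also leave room for a 2-fold decrease for PHGDH, MTHFD2 and CTH, and the interval of MTHFD1 is the narrowest. With the block the intervals were narrower, and only that of SHMT1 (-1.61 to 0.93) reached a 2-fold decrease. By edgeR's quasi-likelihood test the call was made for 0 of the 10 enzymes and for 0.0% of 12470 genes, with or without the block. At an unadjusted p under 0.05, 0.409% of genes passed without the block and 4.96% with it, and 0 of the 10 enzymes passed in either fit. DESeq2 called 0 of the 10 as well. The enzyme with the smallest p was MTHFD2 with the block, at a Log2FC of -0.41 ± 0.20 (edgeR adjusted p = 0.955). The TPM of the 2 groups overlapped for each of the 10 enzymes, while 3.57% of all genes did not overlap.

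The signs within the collagen pairs varied by replicate. For PHGDH the log2 ratios of TPM in replicates 1, 2 and 3 were -0.75, -0.26 and 0.57, for PSPH -0.73, -0.42 and 0.42, for CTH -0.61, -0.63 and 0.57, and for MTHFD2 -0.68, -0.46 and 0.11. These 4 enzymes were lower with collagen in replicates 1 and 2 and higher in replicate 3. PSAT1, MTHFD1 and CBS were lower in replicate 2 alone, at -0.28, -0.18 and -0.26.

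Outside the 10 enzymes, 102 genes were placed in 6 lists, and 101 of these genes were examined. The lists cover the transport and further use of serine and glycine, the folate and methionine cycles, the use of cysteine, and branched-chain amino acids. The last list holds the transcription factor ATF4 with its other targets. In MAT against CYST, 92 of the genes passed the filter on low counts, 57 with a negative and 35 with a positive Log2FC, at a median of -0.18. Without the block none had an adjusted p under 0.05 in edgeR, 26 had an unadjusted p under 0.05 (20.7% of all genes did), and DESeq2 called 12 of 95 (9.33% of all genes). With the replicate block, edgeR called 12 of the 92, 11 lower and 1 higher, where 10.6% of all genes were called, 5.67% lower and 4.9% higher. With both directions pooled, the share of list genes called was near that of all genes in both tools. By direction the calls leaned to lower. DESeq2 called 9 of the 95 lower, beside 5.11% of all genes, and 3 higher, beside 4.22%. The lists were written with earlier results of these data known, so no result about the lists is read from these counts. The genes are given for their own values. The genes described below are among those that passed in the fit with the block, unless stated otherwise.

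In the list of serine and glycine transport and use, 3 of 17 tested genes were called lower with the block and 0 without it. Of all genes, 5.67% and 0.944% were called lower in these fits. The median Log2FC of the list was -0.33. SFXN1, a carrier of serine into mitochondria, was at 51.0, 27.4 and 23.6 TPM in CYST and at 16.8, 12.6 and 9.93 in MAT, with no overlap (with the block, Log2FC -1.33 ± 0.21, edgeR adjusted p = 0.0134). Its relative SFXN3 was at 7.35, 9.69 and 11.2 TPM in CYST and at 3.99, 1.47 and 5.10 in MAT (with the block, -1.58 ± 0.39, adjusted p = 0.0421). SLC1A5, a plasma membrane carrier of small neutral amino acids, was at 331.2, 184.6 and 207.1 TPM in CYST and at 168.3, 101.8 and 116.1 in MAT (with the block, -0.90 ± 0.16, adjusted p = 0.0177). SERINC1 and SERINC3, which help place serine into membrane lipids and are named after their values were seen, were higher in MAT in each pair, with log2 ratios of TPM of 0.39 to 0.61 and 0.45 to 0.66, and did not pass (with the block, edgeR adjusted p = 0.0842 and 0.0735).

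The folate cycle list had 17 tested genes with a median of -0.28. TYMS, thymidylate synthase, was at 69.3, 15.7 and 43.3 TPM in CYST and at 12.4, 5.65 and 30.2 in MAT, so that the groups overlapped while each MAT library was below the cyst library of its number (with the block, -1.48 ± 0.35, edgeR adjusted p = 0.0392). MTHFD1L, which follows MTHFD2 in mitochondria and is named here after its values were seen, was at 69.9 ± 18.6 TPM in CYST and 51.2 ± 16.9 in MAT (SD, n = 3), and its groups overlapped. The ratio of MTHFD1L to MTHFD2 was 1.61 to 1.81 in CYST, 2.05 to 4.08 in MAT and 2.03 to 3.74 in MAT + COL. None of 11 methionine cycle genes passed, with a smallest adjusted p of 0.285 without and 0.0849 with the block in edgeR.

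TST, a mitochondrial sulfurtransferase that acts downstream of cysteine, was the 1 gene of the 6 lists called higher with the block, at 52.0, 30.1 and 30.2 TPM in CYST and at 111.3, 61.2 and 62.2 in MAT, with no overlap (with the block, 1.04 ± 0.18, edgeR adjusted p = 0.0168). The list of 11 tested genes of cysteine use, glutathione and sulfide had a median Log2FC of 0.14, with 7 positive and 4 negative, and its other 10 genes did not pass in either fit.

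Among 17 genes of branched-chain amino acid use, 4 passed with the block, all lower, where 5.67% of all genes were called lower and 4.9% higher. BCKDHB, the E1 beta subunit of the branched-chain keto acid dehydrogenase, was at 47.5, 50.3 and 23.4 TPM in CYST and at 13.0, 20.0 and 11.9 in MAT (with the block, -1.40 ± 0.22, edgeR adjusted p = 0.0134). BCAT2, the mitochondrial counterpart of BCAT1, was at 13.2, 15.7 and 14.1 TPM in CYST and at 8.05, 6.13 and 6.25 in MAT (with the block, -1.10 ± 0.28, adjusted p = 0.0492). SLC3A2, the heavy chain of several amino acid exchangers, was at 306.6, 269.6 and 221.3 TPM in CYST and at 198.2, 153.0 and 115.8 in MAT (with the block, -0.81 ± 0.17, adjusted p = 0.0307). MCCC1, a subunit of the carboxylase of leucine breakdown that falls outside the naming rule, was the fourth (with the block, -0.67 ± 0.17, adjusted p = 0.0465). BCKDHA, the alpha subunit that pairs with BCKDHB and is also named after its values were seen, was at 175.3, 159.3 and 216.5 TPM in CYST and at 346.5, 314.8 and 292.8 in MAT, and did not pass (with the block, 0.79 ± 0.21, adjusted p = 0.0508). The ratio of BCKDHA to BCKDHB was 3.17 to 9.24 in CYST, 15.7 to 26.6 in MAT and 17.4 to 27.8 in MAT + COL.

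ATF4 is a transcription factor of the amino acid response, and PHGDH, PSAT1, PSPH, SHMT2, MTHFD2 and CTH are known among its targets. The list of ATF4 and its other targets held 19 tested genes, 13 with a negative and 6 with a positive Log2FC. Their median was -0.32 without the block. With the block 2 passed, both lower, where 5.67% of all genes were called lower and 4.9% higher. XPOT, which exports tRNA from the nucleus, was at 161.7, 161.5 and 105.0 TPM in CYST and at 60.8, 89.2 and 77.2 in MAT (with the block, -0.91 ± 0.20, edgeR adjusted p = 0.0307). PCK2, the mitochondrial phosphoenolpyruvate carboxykinase, was at 229.2, 160.9 and 125.2 TPM in CYST and at 128.2, 105.7 and 76.5 in MAT (with the block, -0.73 ± 0.16, adjusted p = 0.0342). ATF4 itself, named after its values were seen, was at 469 ± 98.3 TPM in CYST and 342 ± 65.7 in MAT (SD, n = 3) and did not pass (with the block, -0.46 ± 0.16, adjusted p = 0.113). ASNS and TRIB3, other targets named in the same way, had Log2FC of -0.31 and -0.55 with the block, at adjusted p of 0.241 and 0.203 in edgeR. CHAC1, a target held in the list of cysteine use, was at 0.15 (adjusted p = 0.828). STC2, FGF21 and DDIT3 of the ATF4 list, also named after their values were seen, did not pass. Their log2 ratios of TPM in replicates 1, 2 and 3 were -2.81, -1.23 and -1.81 for STC2. They were -2.89, -1.05 and -0.42 for FGF21 and 0.66, 0.52 and 0.53 for DDIT3.

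In MAT + COL against CYST, which shares the cyst libraries, 94 list genes were tested and SLC3A2 was called without the block (Log2FC -0.93 ± 0.15, edgeR adjusted p = 0.0392). With the block 6 were called, where 5.26% of all genes were, and DESeq2 called 18 of 92, where it called 11.6% of all genes. The genes called lower with the block included SFXN1, BCKDHB, SLC3A2 and XPOT, with adjusted p of 0.0283, 0.0233, 0.0297 and 0.0468 in edgeR, and TST was called higher, with an adjusted p of 0.0417. In MAT + COL against MAT, 0 of 94 list genes were called in edgeR with or without the block, and 1 and 7 had an unadjusted p under 0.05 without and with it.

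**Figure D4:**
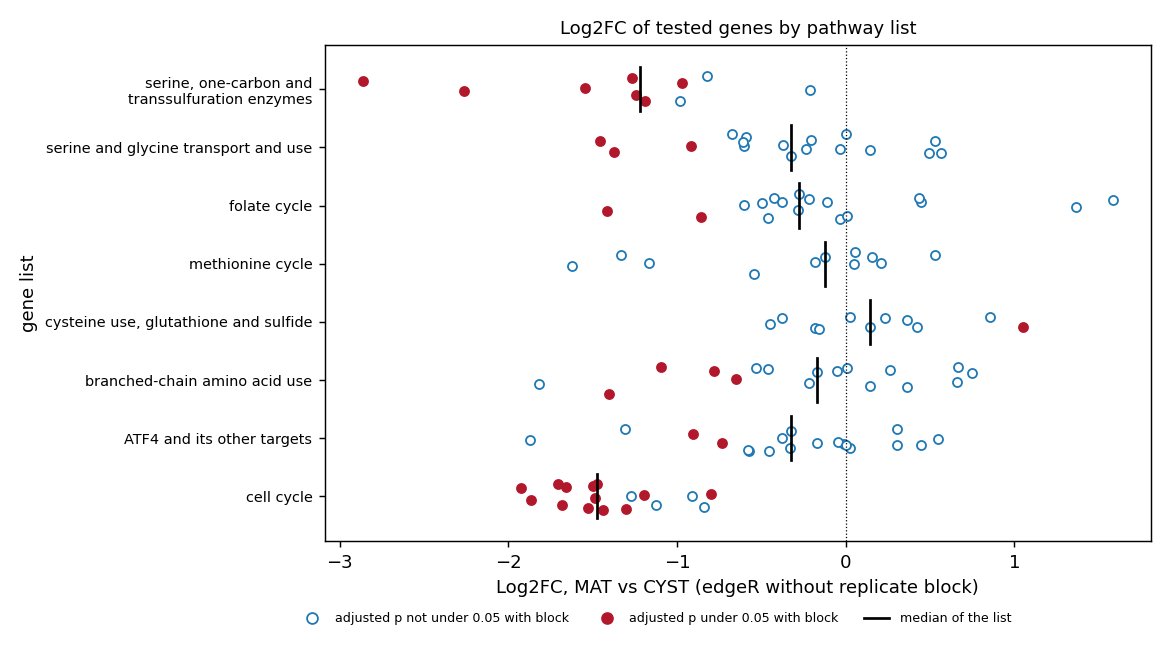
Log2FC in MAT against CYST (edgeR without replicate block, horizontal axis) of each tested gene, by gene list, with a vertical bar at the median of the list. Filled red points had an adjusted p under 0.05 in the fit with the replicate block, and open blue points did not. The 10 enzymes of the top row, which were chosen by this contrast, have a median of -1.22, the 6 pathway lists have medians between -0.33 and 0.14, and the cell cycle list has a median of -1.48.

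Genes of the cell cycle were lower in MAT too. The 17 genes of that list were negative in MAT against CYST, 17 of 17, with a median of -1.48, and 7 passed without the block (MCM2, MCM3, MCM5, MCM6, PCNA, RRM2 and PLK1) and 13 with it, where 0.944% and 5.67% of all genes were called lower. RRM2, a subunit of ribonucleotide reductase, was at 205.8, 196.2 and 177.3 TPM in CYST and at 26.1, 77.1 and 50.3 in MAT. MCM5, part of the replicative helicase, was at 73.7, 71.2 and 61.3 TPM in CYST and at 18.4, 23.6 and 14.9 in MAT. MKI67, a proliferation marker, was at 24.0, 11.9 and 9.61 TPM in CYST and at 5.77, 4.37 and 10.4 in MAT, with overlap, and did not pass (Log2FC -1.12 ± 0.42 without the block, edgeR adjusted p = 0.181). In MAT + COL against CYST the list had 17 of 17 negative, a median of -1.30 and 5 genes called in each fit, where 0.815% of all genes were called lower without the block and 2.58% with it. The part of the cell cycle difference in the values of the enzymes was not tested.

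Across the 9 libraries, the 5 genes outside the set whose log2 CPM was most like the mean standardised level of the 10 enzymes were NUTF2 (Pearson's r 0.986), CCT5 (0.983), U2AF1 (0.983), CCT7 (0.982) and SNRPB (0.982), among 12858 genes. NUTF2 imports Ran into the nucleus, CCT5 and CCT7 are chaperonin subunits, and U2AF1 and SNRPB belong to the splicing machinery. Within the set, PHGDH had the highest r with this mean (0.988), followed by MTHFD2 (0.967), PSPH (0.957) and CTH (0.932), and SHMT1 had the lowest (0.602). These are descriptions over 9 libraries that fall into the groups by EGF and that share replicate numbers, and each enzyme is itself part of the mean.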

How the data were processed

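RNA-seq libraries (SMART-Seq HT PLUS, paired-end reads) were trimmed by the authors and aligned to the bovine genome ARS-UCD2.0 in CLC Genomics Workbench 25.0.1 with default parameters. The authors deposited counts per gene, without normalization, and TPM of the same genes. The strand setting of the counting and the release of the annotation are not given in the sources used here. Here the counts were filtered by filterByExpr (minimum count 10), TMM-normalized and tested with the quasi-likelihood test of edgeR 4.0.16 in R 4.3.3, on 6 libraries per comparison. P-values were adjusted by the Benjamini-Hochberg method across genes. The edgeR fit without the block was tested on simulated counts with independent libraries, and the other fits were not. Levels are the deposited TPM. Gene positions are those in the deposited files.

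The labels number the replicates in every group. Across genes, libraries that share a number deviated together from the group means, with correlations of 0.329, 0.437 and 0.396 (MAT and CYST), 0.278, 0.35 and 0.347 (MAT + COL and CYST) and 0.471, 0.613 and 0.687 (MAT + COL and MAT). The numbers were therefore taken as pairs and the block was fitted as an alternative. DESeq2 1.42.0, limma 3.58.1 on log2(TPM + 1) or log2(TPM + 0.1), no filter, all 9 libraries in 1 fit and leaving out each library were other alternatives. The DEG criteria with the block were an alternative chosen after seeing the data. Genes named from the lists were those called without the block and, in each list, the 3 with the largest Log2FC among those called with it. From the cell cycle list these were MKI67 and the genes called without the block. SLC7A5 has 2 overlapping entries and was not used. GNMT and MTAP were taken from the entries named GNMT_1 and MTAP_1. Promoter and protein sequences were not analysed here, and 1 gene that the naming rule selects is not reported here. The enzymes and the gene lists were chosen with earlier results of these data known.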

Additional observations from a re-analysis of the deposited data

How the results depend on the processing

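Of the enzymes in MAT against CYST, 2 were called in the unblocked edgeR fit, 7 with the replicate block, 6 by the DEG criteria with the block, 4 without the filter on low counts, 9 by DESeq2 and 0 by limma on unfiltered log2(TPM + 1). Of all genes these fits called 1.79%, 10.6%, 6.01%, 1.89%, 9.33% and 0.458%. Leaving out 1 library gave 0 to 3, with 0 without CYST replicate 1 or 2 or MAT replicate 1 or 2. Of all genes, those fits called 0.0562%, 0.0408%, 0.072% and 0.26%, in that order. The count was 1 without MAT replicate 3 (1.0% of all genes) and 3 without CYST replicate 3 (2.14%). For the 6 pathway lists the count was 0, then 12 with the replicate block, 6 by the DEG criteria with the block, 12 by DESeq2, 5 with all 9 libraries in the fit, and 0 to 3 on leaving out 1 library (3 without CYST replicate 3). The fit of all 9 libraries called 4.51% of all genes in MAT against CYST. In MAT + COL against CYST the enzymes gave 3, then 6 with the replicate block and with the DEG criteria added. DESeq2 gave 8, all 9 libraries in 1 fit gave 5 and limma without the filter gave 1. Of all genes these called 1.49%, 5.26%, 3.46%, 11.6%, 4.67% and 0.338%, in that order. Leaving out 1 library gave 0 to 3. The count was 0 without replicate 2 of CYST or of MAT + COL (0.0312% and 0.0234% of all genes). It was 1 without replicate 1 of CYST or of MAT + COL (0.0546% and 0.0469%). It was 2 without CYST replicate 3 (0.877%) and 3 without MAT + COL replicate 3 (1.46%). The lists gave 1, then 6 with the replicate block, 3 by the DEG criteria with it and 0 without it, 2 without the filter, 18 by DESeq2, 7 with all 9 libraries, 0 by limma with either pseudocount or no filter, and 0 to 1 on leaving out 1 library (1 without CYST replicate 3 and 0 without each of the others). Of all genes in MAT + COL against CYST, the DEG criteria without the block called 1.13% and the fit without the filter 1.26%. Filtered limma called 1.7% on log2(TPM + 1) and 1.44% on log2(TPM + 0.1). For MAT + COL against MAT each setting gave 0. The block also added calls in the cell cycle list in MAT against CYST, for CCNA2, AURKA, MCM4, TOP2A, CCNB1 and MCM7. Over all genes, calls went from 216 without to 1277 with the block in MAT against CYST. In MAT + COL against CYST they went from 186 to 658. The causes were not tested.

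The sign of the Log2FC turned in 2 alternatives for the enzymes in MAT against CYST, both for SHMT1 (-0.83 to 0.0703 on leaving out 1 library), and in none for MAT + COL against CYST. In MAT + COL against MAT, where nothing was called, PSAT1 was at 0.0517 and CBS at 0.022 by limma on log2(TPM + 1), filtered or not, and at 0.0521 and 0.0221 on log2(TPM + 0.1), and leaving out 1 library gave -0.61 to 0.0871 for PHGDH, -0.31 to 0.26 for PSAT1, -0.97 to 0.28 for SHMT1, -0.34 to 0.30 for SHMT2, -0.15 to 0.23 for MTHFD1, -0.27 to 0.15 for CBS and -0.46 to 0.32 for BCAT1. SHMT1 had 32 to 90 counts per library, and the parts of depth and of the spread between libraries in its error were not separated.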
